A study of Mus musculus with 24 samples.

Results

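The genes of ribosome biogenesis and the nucleolus were followed through 35 named members, taken by symbol from the 55385 gene identifiers that were counted in mouse hippocampus. They comprise 7 genes of RNA polymerase I and its initiation factors, 4 nucleolar scaffold and chaperone genes, 3 genes of the box C/D and 4 of the box H/ACA small nucleolar ribonucleoproteins (snoRNPs), 8 genes for processing of the small and 7 for processing of the large ribosomal subunit, the helicase gene *Ddx21* and the transcription factor gene *Myc*. The members were chosen by function from a list of names and not by a threshold on their values. The choice was made with earlier results of these data known. All 35 were found and all 35 passed the filter on low counts in every comparison.

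Hippocampal RNA was sequenced from 24 mice in 6 groups of 4. All mice were Tsc1 fl/fl, were 16 to 22 weeks old, of both sexes, and received tamoxifen for 4 days. The controls (Tsc1-Cre-) were littermates without Cre and were taken on day 8. The Tsc1-Cre+ mice carried the *Camk2a*-CreERT2 transgene and were taken on day 4, 6, 8 or 13. A further Tsc1-Cre+ group (Tsc1-Cre+-Rap 4) received 10 mg/kg rapamycin daily from day 4 and was taken on day 13. *Tsc1* encodes a subunit of the complex that holds the kinase mTOR in check, and rapamycin inhibits mTOR. The transgene acts in CAMK2A-expressing neurons, so the other cells of the hippocampus keep *Tsc1*, and in whole tissue fewer cells of a type and less RNA per cell cannot be told apart. No rapamycin was given to Tsc1-Cre- mice in this series, so what the drug does without the deletion cannot be told apart from what it does with it. The paper describes seizures in this model from about day 8, and their prevention by a lower dose of rapamycin from day 4. From day 8 on, time since deletion, seizures and treatment cannot be told apart. For the large spread on day 13 the paper proposes differences in seizure load. Seizures of single mice were not in the sources used here.

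Ribosomes are made in the nucleolus, where RNA polymerase I transcribes the precursor of the ribosomal RNAs. Box C/D snoRNPs guide methylation and box H/ACA snoRNPs guide pseudouridylation of this precursor, and large processing complexes fold it, cut it and join it to ribosomal proteins. MYC is a transcription factor known to drive many of these genes, and mTOR signaling is known to raise ribosome production in growing cells.

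*Tsc1* itself was at 105 ± 3.21 CPM in controls and at 63.6 ± 6.19 CPM on day 13 (mean ± SD, n = 4; CPM are counts scaled by library size and TMM factor), and every Tsc1-Cre+ mouse was below every control. Total counts ranged from 28208561 to 126435936 per mouse, with a median of 55582027. The day 13 mice were the least even in depth: mice A and B had 69971957 and 126435936 counts, and mice C and D had 38423852 and 41101425. The deposited counts carry numbers in their names, and what these stand for is not stated. The numbers of the day 8 mice run in the same series as those of the controls, and those of the remaining groups do not. In the remaining groups, any batch that the numbers mark and the time point or treatment cannot be told apart. All 6 markers of excitatory neurons had counts in every group, with a summed level of 2591 to 3354 CPM in controls and 2715 to 3860 CPM on day 13. On day 13, 1 of the 6 passed the test: *Slc17a7*, for a vesicular glutamate transporter, rose from 651.6 to 1093 CPM (log2 fold change 0.73 ± 0.08, SE, edgeR adjusted p = 0.000508), and it fell under rapamycin against day 13 (-0.79). The other 5 lay between -0.41 and 0.10 on the log2 scale on day 13. *Slc17a7* also passed on day 6 (0.28, edgeR adjusted p = 0.00992) and day 8 (0.44, edgeR adjusted p = 0.00977). Its means were 753.2, 799.2 and 895.4 CPM on days 4, 6 and 8 and 627.2 under rapamycin. *Camk2a* passed on day 4 (0.36, edgeR adjusted p = 0.0379) and *Nrgn* on day 6 (0.19, edgeR adjusted p = 0.0219). The remaining markers did not pass on days 4, 6 or 8.

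As a group, the ribosome biogenesis genes were higher at each later time point after *Tsc1* deletion and overlapped the control level under rapamycin. The mean over the 35 genes of log2 CPM relative to the control mean lay between -0.01 and 0.01 in the control mice. Day 4 mice averaged 0.06 ± 0.02, day 6 mice 0.16 ± 0.01, day 8 mice 0.28 ± 0.07 and day 13 mice 0.49 ± 0.26 (SD, n = 4). Every mouse of days 4, 6, 8 and 13 lay above every control mouse, and the ranges of days 4, 6 and 8 did not overlap each other. Day 13 was split: mice A and B stood at 0.70 and 0.73, above all other mice, and mice C and D at 0.28 and 0.26, inside the day 8 range of 0.22 to 0.36. In the rapamycin mice the value was -0.02, 0.02, 0.01 and -0.03, a mean of -0.0036 ± 0.0267 that overlapped the controls. Scaled by total counts in place of TMM, the day 13 mean was 0.35 and the day 8 mean 0.21.

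**Figure D1:**
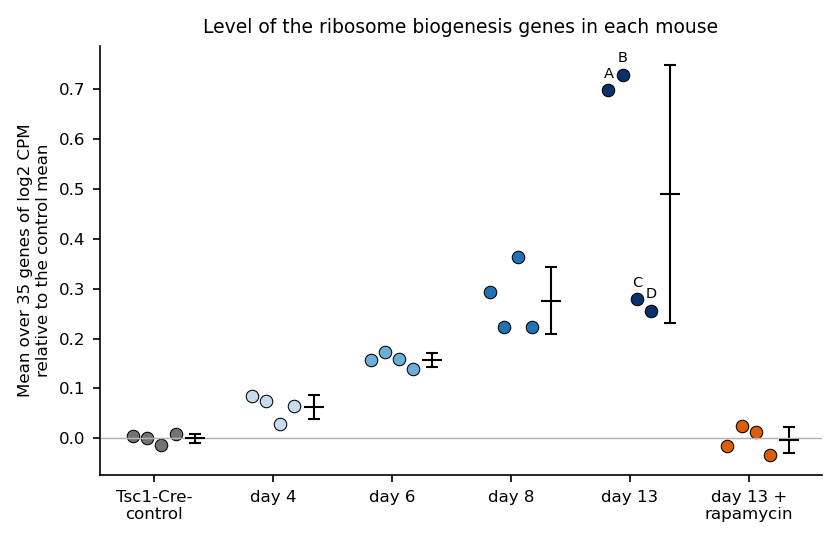
Each point is 1 mouse and shows the mean over the 35 ribosome biogenesis genes of log2 CPM minus the mean of the 4 controls (y axis) by group (x axis); the bar beside each group is the mean ± SD of its 4 mice, and the day 13 mice are lettered. The groups step up from control to day 8, day 13 mice A and B lie near 0.7 with C and D near the day 8 mice, and the rapamycin mice lie around 0.

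Gene by gene, edgeR's quasi-likelihood test was run on the 8 mice of each comparison over all expressed genes. Below, a gene rose or fell where its adjusted p was under 0.05, and it is called differentially expressed (DE) where its absolute log2 fold change was also over 0.5. On day 4, 2 members rose (*Rrp12* and *Bop1*; 2.61% of all 25308 genes tested rose) and none was DE (0.34% of all genes were DE and higher). edgeR gave 11 members at an unadjusted p under 0.05 on day 4, and DESeq2 on the same mice also called 0 DE. On day 6, 13 members rose (6.24% of all genes) and again none was DE by edgeR or DESeq2 (0.647%), with 20 at an unadjusted p under 0.05. The share of all genes at an unadjusted p under 0.05 was not counted, so the 11 and 20 have no background beside them. On day 8, 21 rose (8.41%) and 1, *Rrp12*, was DE (2.15%). On day 13, 26 rose (15.6%) and 16 were DE (8.4%). No member fell against the controls on day 4 (1.56% of all genes), day 6 (3.81%), day 8 (4.87%) or day 13 (11.3%). Fold changes of single genes are given on the log2 scale ± SE.

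The size of the change was modest and shared. Over the 35 members the median log2 fold change was 0.07, 0.16, 0.30 and 0.49 at days 4, 6, 8 and 13, where the median of all genes tested was -0.0047, -0.02, -0.03 and -0.04. The fold change was above 0 for 28, 31, 34 and 35 of the 35 members on days 4, 6, 8 and 13. On day 13 the middle 50% of the members lay between 0.35 and 0.62 and that of all genes between -0.36 and 0.27. The group means of 24 members were higher at each step from control over days 4, 6 and 8 to day 13, a pattern held by 7.59% of 27110 genes. All 4 mice lay above all 4 controls for 8 members on day 4 (5.97% of all genes), 17 on day 6 (9.85%), 25 on day 8 (12.4%) and 26 on day 13 (17.1%). These comparisons share the same 4 controls.

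**Figure D2:**
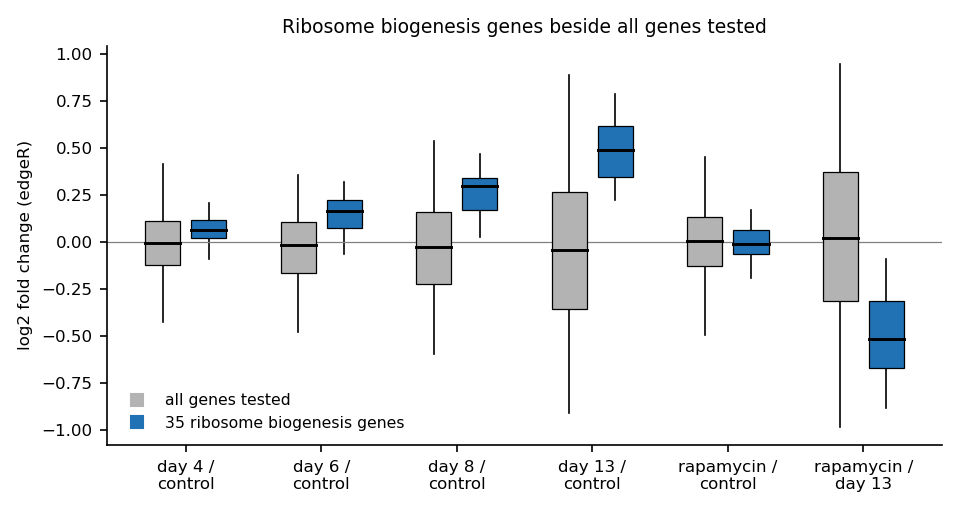
Boxes show the middle 50% of log2 fold changes (y axis, edgeR) with the median as a line and whiskers to the 5th and 95th percentiles, for all genes tested (grey) and for the 35 ribosome biogenesis genes (blue), in each comparison (x axis). The blue median moves from 0.07 on day 4 to 0.49 on day 13, is -0.01 for rapamycin against control and -0.52 for rapamycin against day 13, while the grey median stays between -0.04 and 0.02.

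Under rapamycin, 0 of the 35 members passed the test against the controls in edgeR (1.26% of all genes rose and 2.31% fell). 7 had an unadjusted p under 0.05 (share of all genes not counted), and DESeq2 on the same mice gave 1, *Nop2*, at an adjusted p under 0.05. The median log2 fold change was -0.01, and 17 of 35 were above 0. All 4 rapamycin mice lay above all 4 controls for 2 members (5.7% of all genes) and below them for 2 (6.2%). Against the untreated day 13 mice, 24 members fell (17.7% of all genes), 18 of them DE (11.2%), and none rose (13.1%), with a median of -0.52 where that of all genes was 0.02. All 4 rapamycin mice lay below all 4 day 13 mice for 23 members (17.7% of all genes). This comparison uses the same day 13 mice as that with the controls. Over all 24 mice, an edgeR F test across the 6 groups gave an adjusted p under 0.05 for 29 of 35 members (41.9% of all genes).

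The DE counts on day 13 were smaller without mice A and B. In that fit 21 members rose against the controls (12.7% of all genes), only *Nhp2*, *Nop16* and *Rrp12* were DE (4.89% of all genes were DE and higher), and the median was 0.29. Under rapamycin 16 fell against the remaining day 13 mice (13.4% of all genes) and 5 were DE (*Nop10*, *Nop2*, *Rrp9*, *Nop16* and *Rrp12*; 6.94%), with a median of -0.26. Read against these shares, 3 and 5 DE members of 35 are only a few genes above the background, and this excess was not tested. Leaving out 1 mouse at a time gave 13 to 21 DE members for day 13 against control and 14 to 20 for rapamycin against day 13. The early counts were also smaller in a fit of all 24 mice together, which shares 1 estimate of the spread and also changes the scaling and the genes tested. There edgeR gave 0 members that rose on day 4 (0.129% of all genes), 1 on day 6 (*Rrp12*; 0.848%), 18 on day 8 (8.2%) and 32 on day 13 (21.7%), and DESeq2 gave 0, 5, 20 and 33 (0.39%, 1.41%, 5.6% and 13.5%).

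**Figure D3:**
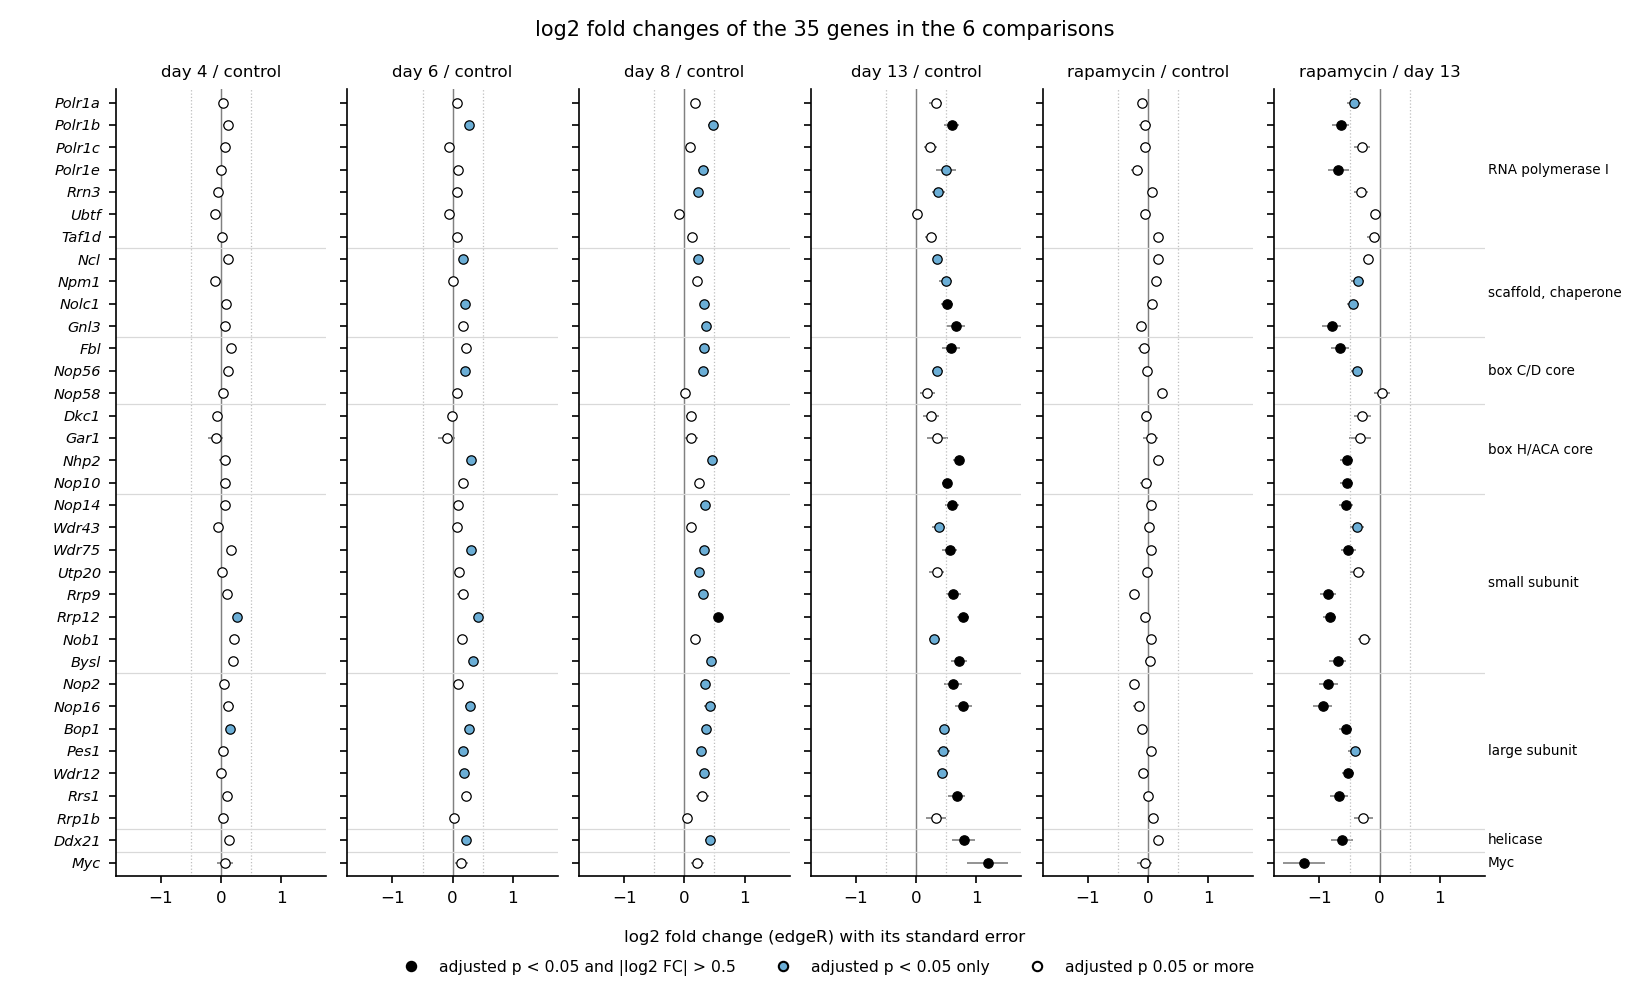
Each row is 1 of the 35 genes, ordered by role, and each panel 1 comparison; points are edgeR log2 fold changes (x axis, first group minus second) with standard errors, black where called DE, blue where only the adjusted p was under 0.05 and white otherwise. Points move right from day 4 to day 13, lie on both sides of 0 for rapamycin against control and lie left of 0 for rapamycin against day 13 except *Nop58*.

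*Myc*, on chromosome 15 (61985391 to 61990374, + strand, GRCm38), had the lowest level per length of the members, 1.14 CPM per kb of exon in controls. Its levels were 2.86, 3.35, 3.05 and 3.16 CPM in control mice A to D, 3.28, 2.77, 4.06 and 2.95 on day 4, 3.24, 3.44, 3.37 and 3.75 on day 6 and 3.85, 3.70, 3.51 and 3.51 on day 8. They were 13.2, 7.06, 4.54 and 3.83 CPM in day 13 mice A to D and 2.60, 3.23, 2.69 and 3.39 in the rapamycin mice. All day 8 and all day 13 mice lay above all controls, by a small margin except for day 13 mice A and B. *Myc* passed the test only on day 13 (log2 fold change 1.19 ± 0.34, adjusted p = 0.0299) and for rapamycin against day 13 (-1.26 ± 0.35, adjusted p = 0.0207). The day 13 call was lost without day 13 mouse B or without any 1 control (adjusted p of 0.052 to 0.077), and the other without rapamycin mouse A or C (0.0585 and 0.0581). Without day 13 mice A and B the *Myc* difference from control was 0.43 with an adjusted p of 0.0782.

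MYC with its partner MAX is known to bind DNA at the letters CACGTG. RefSeq promoter windows on GRCm38.p6, 250 bases before to 50 after the gene start, were at hand for 29 of the 35 members. The 6 without a window were *Bop1*, *Fbl*, *Myc*, *Npm1*, *Rrp12* and *Rrs1*. CACGTG, which reads the same on both strands, was in the window of 5 members (17.24%: *Nop2*, *Pes1*, *Rrn3*, *Utp20* and *Wdr43*), in 7.24% of the windows of 27025 genes and in 7.9% of 17492 protein-coding genes. The 250 bases before the start of *Nop2*, the member with the motif that was DE on day 13, and of *Rrn3*, picked after its sequence was seen because it holds the motif at 2 places, are shown 5′ to 3′ with CACGTG in capitals. They lie at chr6:125131633-125131882 and chr16:13780449-13780698, both on the + strand.
Nop2: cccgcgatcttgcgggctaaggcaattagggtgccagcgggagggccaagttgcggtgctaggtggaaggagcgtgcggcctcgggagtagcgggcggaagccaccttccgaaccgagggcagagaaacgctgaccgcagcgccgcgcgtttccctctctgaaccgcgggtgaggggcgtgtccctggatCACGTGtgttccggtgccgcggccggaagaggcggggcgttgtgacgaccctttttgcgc
Rrn3: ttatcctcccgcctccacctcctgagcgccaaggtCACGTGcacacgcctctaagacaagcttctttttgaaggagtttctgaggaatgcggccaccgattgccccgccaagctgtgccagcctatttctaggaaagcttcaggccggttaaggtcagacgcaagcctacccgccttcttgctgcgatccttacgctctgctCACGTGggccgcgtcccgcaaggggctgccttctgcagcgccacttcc
The 5 members with the motif had a median log2 fold change of 0.37 on day 13 and the 24 with a window without it 0.46; the difference was not tested. A match says only that the letters are there, and no binding was measured.

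In the RNA polymerase I group the day 13 log2 fold changes ran from 0.01 (*Ubtf*) to 0.59 (*Polr1b*). *Polr1b*, which encodes the second-largest subunit, was at 11.4, 12.8, 12.7 and 12.9 CPM in control mice A to D, 12.3, 14.3, 12.8 and 14.6 on day 4, 15.9, 16.04, 14.7 and 13.8 on day 6 and 19.3, 17.2, 17.9 and 15.6 on day 8. It was at 23.1, 20.8, 16.6 and 15.8 CPM on day 13 and 14.5, 12.2, 10.6 and 10.98 under rapamycin. From day 6 on, every Tsc1-Cre+ mouse without rapamycin exceeded every control, and the rapamycin mice, from 10.6 to 14.5, spread around the controls. It rose on day 6 (0.27 ± 0.07, adjusted p = 0.0265), day 8 (0.48 ± 0.08, adjusted p = 0.00366) and day 13 (0.59 ± 0.13, adjusted p = 0.0092) and fell under rapamycin against day 13 (-0.65 ± 0.15, adjusted p = 0.00975). The day 6 result was lost without control A or day 6 mouse A, B or C (adjusted p of 0.0587 to 0.0901).

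*Polr1e*, for another subunit of the polymerase, was at 7.12, 6.69, 6.51 and 6.36 CPM in controls, 6.86, 6.54, 7.09 and 6.12 on day 4, 6.95, 7.34, 6.72 and 7.67 on day 6 and 7.62, 8.06, 9.02 and 8.78 on day 8. It was at 10.2, 11.9, 6.48 and 9.59 CPM on day 13 and 5.69, 5.86, 5.45 and 6.58 under rapamycin. Day 13 mouse C was inside the control range and the other 3 above it. *Polr1e* was at the edge of the test on day 8 (adjusted p = 0.048; 0.0537 to 0.126 with any 1 mouse left out) and day 13 (0.50 ± 0.16, adjusted p = 0.0494; at 0.05 or more in 7 of the 8 fits that leave out 1 mouse), and was DE under rapamycin against day 13 (-0.68 ± 0.17, adjusted p = 0.0143), a call lost without day 13 mice A and B (adjusted p = 0.0832). It overlaps *Fbxo10* on the other strand, and the strand setting of the counting was not given in the sources used here.

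Of the other polymerase genes, *Rrn3*, which recruits the polymerase to its promoter, rose on day 8 (0.23 ± 0.06, adjusted p = 0.0316) and day 13 (0.37 ± 0.10, adjusted p = 0.0264), each lost without any 1 control or mouse A of its time point. *Polr1a*, for the largest subunit, passed no test against the controls (day 13: 0.32, adjusted p = 0.0627) and fell under rapamycin against day 13 (-0.43 ± 0.11, adjusted p = 0.019), a result lost without day 13 mouse A or rapamycin mouse A or D (adjusted p up to 0.0556). *Polr1c*, shared with RNA polymerase III, stood at 0.24 on day 13 and *Taf1d*, a subunit of the promoter selectivity factor, at 0.25, and neither passed. *Ubtf*, the architectural factor of the ribosomal gene repeats, was at 102 ± 2.49 CPM in controls and 103 ± 8.79 on day 13, a log2 difference of 0.01 ± 0.07 (SE). It had the smallest day 13 value of the 35. All day 4 mice (91.65 to 97.87 CPM) and all day 6 mice (96.74 to 98.84) lay below all controls (99.09 to 104.1). Neither difference passed the test in edgeR (adjusted p = 0.144 and 0.257). On day 8 *Ubtf* was the only member below 0 (-0.08 ± 0.04). In this group 3 of 7 members rose on day 13 (15.6% of all genes), and 1 was DE (8.4%), which is near the background.

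All 4 scaffold and chaperone genes rose on day 13 (15.6% of all genes) and 2 were DE (8.4%). *Gnl3*, which encodes nucleostemin, a nucleolar GTP-binding protein, was at 27.6, 27.4, 27.04 and 27.96 CPM in controls, 29.01, 28.6, 28.8 and 28.4 on day 4, 31.9, 31.9, 33.5 and 27.8 on day 6 and 32.8, 33.4, 38.8 and 37.1 on day 8. It was at 53.3, 54.7, 36.3 and 32.8 CPM on day 13 and 22.9, 24.8, 27.2 and 26.2 under rapamycin. The 4 controls spanned less than 1 CPM, all day 4 mice lay just above them, and day 13 mice A and B stood well above C and D, which lay at the day 8 level. It rose on day 8 (0.36 ± 0.07, adjusted p = 0.00582) and day 13 (0.67 ± 0.15, adjusted p = 0.012) and fell under rapamycin against day 13 (-0.80 ± 0.16, adjusted p = 0.00523). *Gnl3* overlaps *Pbrm1* on the other strand.

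*Nolc1*, for a phosphoprotein that carries snoRNPs between Cajal bodies and the nucleolus, was at 49.7, 49.5, 49 and 48.02 CPM in controls, 53.4, 52.7, 48.6 and 52.6 on day 4, 60.1, 56.7, 56.6 and 53.9 on day 6 and 65.4, 56.2, 65.2 and 61.2 on day 8. It was at 77.8, 82.2, 63.7 and 60.4 CPM on day 13 and 50.1, 54.2, 49.3 and 52.7 under rapamycin. All mice of days 6, 8 and 13 exceeded all controls. It rose on day 6 (0.20 ± 0.04, adjusted p = 0.00569), day 8 (0.32 ± 0.06, adjusted p = 0.00406) and day 13 (0.51 ± 0.09, adjusted p = 0.00468) and fell under rapamycin against day 13 (-0.45, adjusted p = 0.00844), below the size needed for a DE call. *Ncl*, for nucleolin, went from 133 ± 2.34 CPM in controls to 172 ± 16.2 on day 13 and rose on days 6, 8 and 13 (0.35 ± 0.07, adjusted p = 0.00747 on day 13), with the day 8 result lost without control B, C or D or day 8 mouse A (adjusted p up to 0.0581). *Npm1*, for the nucleolar chaperone nucleophosmin, had the highest level per length of the members, 37.9 CPM per kb in controls, and rose only on day 13, just under the DE limit (0.49 ± 0.11, adjusted p = 0.0109). Its fall under rapamycin (-0.37, adjusted p = 0.0323) was lost without day 13 mouse A or B or any 1 rapamycin mouse (up to 0.0912).

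Within the snoRNP cores some members passed the test and others of the same particle did not; differences between these genes were not tested. In the box C/D core, *Fbl*, for the methyltransferase fibrillarin, went from 10.2 ± 0.623 CPM in controls to 15.4 ± 3.37 on day 13 (0.58 ± 0.15, adjusted p = 0.0188; adjusted p up to 0.0584 without control A or D), and fell under rapamycin against day 13 (-0.66 ± 0.15, adjusted p = 0.0109). *Nop56* was at 61.7, 59.4, 59.3 and 63.6 CPM in controls, 68.4, 68.6, 61.9 and 64.7 on day 4, 70.2, 69.6, 73.3 and 68.9 on day 6 and 74.4, 77.8, 73.2 and 78.5 on day 8. It was at 88.7, 86.7, 72.2 and 68.1 CPM on day 13 and 56.2, 62.4, 65.3 and 57.2 under rapamycin. From day 6 every untreated Tsc1-Cre+ mouse was above every control. *Nop56* rose on day 6 (0.20 ± 0.04, adjusted p = 0.00334), day 8 (0.30 ± 0.05, adjusted p = 0.00303) and day 13 (0.35 ± 0.09, adjusted p = 0.0171), the last lost without control B or C (adjusted p of 0.055 and 0.0563), and fell under rapamycin against day 13 (-0.38 ± 0.10, adjusted p = 0.0157), which was lost without day 13 mice A and B (0.0796). It shares its locus with *Idh3b* on the other strand. *Nop58*, the partner of *Nop56* in the same particle, was at 53.1 ± 2.34 CPM in controls, 61.3 ± 11.7 on day 13 and 62.5 CPM under rapamycin. It passed no test and was the only member with a value above 0 for rapamycin against day 13 (0.04 ± 0.14, SE).

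In the box H/ACA core, *Nhp2* and *Nop10* were DE on day 13 and *Dkc1* and *Gar1* were not. *Nhp2*, for a small RNA-binding subunit, was at 10.5, 11.5, 11.03 and 12.6 CPM in controls, 10.7, 12.8, 10.3 and 13.9 on day 4, 14.3, 14.9, 13.97 and 13.8 on day 6 and 15.2, 15.7, 17.3 and 15.4 on day 8. It was at 19.8, 19.8, 17.98 and 17.98 CPM on day 13 and 14.3, 12.5, 13.7 and 10.9 under rapamycin. The 4 day 13 mice lay within 2 CPM of each other and above all mice of every other group. It rose on day 6 (0.31 ± 0.07, adjusted p = 0.0123), day 8 (0.47 ± 0.08, adjusted p = 0.00426) and day 13 (0.71 ± 0.09, adjusted p = 0.00106) and fell under rapamycin against day 13 (-0.55 ± 0.11, adjusted p = 0.00474). It overlaps *Rmnd5b* on the other strand. *Nop10* went from 14.1 ± 1.07 CPM in controls to 20.4 ± 0.931 on day 13 (0.51 ± 0.09, adjusted p = 0.00344) and fell under rapamycin against it (-0.55 ± 0.11, adjusted p = 0.00527). *Dkc1*, for the pseudouridine synthase, stood at 0.25 on day 13 (adjusted p = 0.194), and *Gar1*, the member with the second-lowest CPM in controls (3.58 ± 0.347), at 0.35 (0.171).

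Some of these genes carry snoRNA genes in their introns. By GENCODE M21, 7 of the 35 members (20%) hold a snoRNA gene on their own strand, 27 in all, where 1.274% of 21897 protein-coding genes do. The hosts were *Taf1d*, *Ncl*, *Gnl3*, *Nop56*, *Nop58*, *Dkc1* and *Wdr43*. Their median log2 fold change on day 13 was 0.35 with 1 of 7 DE (*Gnl3*), and that of the 28 other members 0.51 with 15 DE. Of all genes 8.4% were DE and higher, so 1 of 7 is near the background. Only 4 of the 27 snoRNAs had enough counts to be tested on day 13, and 0 of them had an adjusted p under 0.05 in edgeR, nor an unadjusted p under 0.05. Of the 27, 18 had no count in any library. The reason was not tested, and for these snoRNAs no change could be measured.

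The small-subunit genes held the clearest single time course and the most DE members, 5 of 8 on day 13 (8.4% of all genes). Differences between the roles were not tested. *Rrp12*, for a HEAT-repeat protein that acts in export and maturation of pre-ribosomes, lies on chromosome 19 (41862851 to 41896173, - strand). It was at 44.4, 40.6, 38.2 and 38.5 CPM in control mice A to D, 50.2, 48.9, 44.1 and 50.4 on day 4, 55.1, 56.03, 54.4 and 52.2 on day 6 and 63.1, 59.02, 60.5 and 56.8 on day 8. It was at 71.7, 83.9, 65 and 59.8 CPM on day 13 and 39.04, 41.97, 40 and 35.3 under rapamycin. The days 6, 8 and 13 lay above all controls, day 4 overlapped them through 1 mouse, and the rapamycin mice overlapped them. The log2 fold change was 0.26 ± 0.06, adjusted p = 0.0284 on day 4, 0.42 ± 0.05, adjusted p = 0.00023 on day 6, 0.55 ± 0.06, adjusted p = 0.000436 on day 8 and 0.77 ± 0.10, adjusted p = 0.00112 on day 13. It was -0.05 for rapamycin against control (adjusted p = 0.76) and -0.83 ± 0.10, adjusted p = 0.00073 against day 13. The day 4 result was lost in 6 of the 8 fits that leave out 1 mouse (control B, C or D, day 4 A, B or D; adjusted p of 0.0593 to 0.0965), and no later result was. Without day 13 mice A and B *Rrp12* was still DE on day 13 (0.62, adjusted p = 0.000445).

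*Bysl*, for bystin, a factor of the small-subunit precursor, was at 20.2, 17.6, 16.96 and 17.8 CPM in controls, 20.9, 20.5, 20.6 and 21.1 on day 4, 23.2, 24.7, 21.5 and 22.6 on day 6 and 26.1, 25.7, 25.2 and 22.7 on day 8. It was at 32.04, 38.5, 25.7 and 24.6 CPM on day 13 and 20.6, 18.1, 18.6 and 16.6 under rapamycin. Every untreated Tsc1-Cre+ mouse exceeded every control, with the smallest gap on day 4, where control A reached 20.2. *Bysl* rose on day 6 (0.33 ± 0.07, adjusted p = 0.007), day 8 (0.45 ± 0.07, adjusted p = 0.00366) and day 13 (0.71 ± 0.14, adjusted p = 0.00545) and fell under rapamycin against day 13 (-0.70 ± 0.14, adjusted p = 0.00545). It overlaps *Ccnd3* on the other strand.

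*Rrp9*, for a protein of the snoRNP that starts small-subunit processing, was at 13.5, 14.3, 14.2 and 13.97 CPM in controls, 14.4, 15.2, 16.1 and 14.5 on day 4, 12.8, 16.1, 16.8 and 17.4 on day 6 and 18.6, 16.9, 18.9 and 15.3 on day 8. It was at 23.02, 27.1, 18.9 and 18.1 CPM on day 13 and 12.8, 12.7, 11.7 and 10.7 under rapamycin. The rapamycin mice all lay below all controls, by a log2 difference of -0.23 that did not pass the test (adjusted p = 0.129; exact permutation p = 0.0286, the smallest that 4 against 4 can give). *Rrp9* rose on day 8 (0.30 ± 0.08, adjusted p = 0.0268, lost without any 1 control or day 8 mouse A or C, adjusted p up to 0.0894) and day 13 (0.62 ± 0.12, adjusted p = 0.00653) and fell under rapamycin against day 13 (-0.85 ± 0.13, adjusted p = 0.00182). It overlaps *Parp3* on the other strand.

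*Wdr75*, *Nop14*, *Wdr43* and *Utp20* encode proteins of the small-subunit processome. *Wdr75* rose on day 6 (0.30 ± 0.05, adjusted p = 0.00236), day 8 (0.33, adjusted p = 0.00263) and day 13 (0.56 ± 0.12, adjusted p = 0.0101). *Nop14* rose on day 8 (0.34, adjusted p = 0.016, lost without control C or day 8 mouse A) and day 13 (0.60 ± 0.12, adjusted p = 0.00575). *Wdr43* rose on day 13 only (0.37 ± 0.11, adjusted p = 0.037), and this was lost with any of 6 mice left out, the 4 controls and day 13 A and B (adjusted p up to 0.0966). *Utp20* rose on day 8 (0.25, adjusted p = 0.0238, lost without control B, C or D or day 8 mouse A) and missed the threshold on day 13 (0.34, adjusted p = 0.0654). *Nob1*, for the endonuclease that makes the last cut of the small-subunit rRNA, rose on day 13 (0.30 ± 0.09, adjusted p = 0.0391), which was likewise lost with any of the 4 controls or day 13 A or B left out (up to 0.109). Under rapamycin against day 13, *Nop14* (-0.56) and *Wdr75* (-0.52) were DE and lower, *Wdr43* fell (-0.37, adjusted p = 0.0347, lost without day 13 mouse A or B or any 1 rapamycin mouse), and *Utp20* (-0.36) and *Nob1* (-0.26) did not pass.

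In the large-subunit group 6 of 7 members rose on day 13 (15.6% of all genes) and 3 were DE (8.4%). *Nop16* was at 8.97, 9.83, 10.02 and 8.57 CPM in controls, 11.2, 10.8, 9.02 and 9.79 on day 4, 12.5, 11.5, 10.4 and 11.7 on day 6 and 13.2, 12.1, 14.3 and 11.2 on day 8. It was at 18.01, 20.1, 13.9 and 13.4 CPM on day 13 and 7.91, 8.92, 9.51 and 7.25 under rapamycin. The days 6, 8 and 13 were each clear of the controls, with day 13 mice A and B the highest. After *Myc*, *Nop16* had with *Ddx21* the largest log2 fold change on day 13 (0.79 ± 0.14, adjusted p = 0.00387), and it had the largest under rapamycin against day 13 (-0.95 ± 0.15, adjusted p = 0.00189). It rose on day 8 (0.43 ± 0.09, adjusted p = 0.0138) and on day 6 (0.29 ± 0.08, adjusted p = 0.0356), the latter lost without control A or D or day 6 mouse A, B or D (adjusted p up to 0.0945).

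*Nop2*, for an rRNA cytosine methyltransferase, was at 23.6, 21.8, 20.9 and 21.6 CPM in controls, 22.99, 24.1, 21.2 and 22.4 on day 4, 22.4, 24.6, 24.9 and 22.8 on day 6 and 29.3, 27.5, 29.5 and 26.4 on day 8. It was at 40.02, 42.5, 27.4 and 26.5 CPM on day 13 and 20.3, 17.9, 18.8 and 17.9 under rapamycin. Days 8 and 13 lay above all controls, and the rapamycin mice lay below all of them. *Nop2* rose on day 8 (0.35 ± 0.06, adjusted p = 0.00562) and day 13 (0.61 ± 0.15, adjusted p = 0.0156; adjusted p = 0.0523 without control C) and fell under rapamycin against day 13 (-0.85 ± 0.15, adjusted p = 0.00325). For rapamycin against control its log2 difference was -0.23 with an adjusted p of 0.0745 in edgeR (exact permutation p = 0.0286).

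*Bop1*, *Pes1* and *Wdr12* encode the PeBoW complex of large-subunit maturation. On day 13 they stood at 0.46 (adjusted p = 0.00513), 0.45 (0.0158) and 0.43 (0.00925), all short of the DE limit. On day 6 they stood at 0.27 (0.00105), 0.18 (0.0398) and 0.19 (0.0162), with the *Pes1* result lost in 7 of 8 fits that leave out 1 mouse (every mouse but control A) and that of *Wdr12* without control B or day 6 mouse A. The *Pes1* results of days 8 and 13 were lost without control B or C (adjusted p up to 0.0519 and 0.0543). Under rapamycin against day 13 *Bop1* (-0.56) and *Wdr12* (-0.53) were DE and *Pes1* (-0.42, adjusted p = 0.0205) was not; the *Pes1* result was lost without day 13 mouse A or B or any 1 rapamycin mouse. On day 4 *Bop1* rose (0.16, adjusted p = 0.0464), a result lost with any 1 mouse left out (0.0563 to 0.148), while *Pes1* stood at 0.03 (0.781) and *Wdr12* at 0.01 (0.961). Differences between these 3 genes were not tested. *Bop1*, *Pes1* and *Wdr12* each overlap a protein-coding gene on the other strand. *Rrs1* was DE on day 13 (0.67 ± 0.15, adjusted p = 0.0102) and under rapamycin against it (-0.68 ± 0.14, adjusted p = 0.00712), and *Rrp1b* passed no test (0.34 on day 13, adjusted p = 0.159).

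*Ddx21*, for a nucleolar RNA helicase, was at 30.8, 30.4, 28.96 and 28.5 CPM in controls, 34.1, 34.05, 32.2 and 30.1 on day 4, 36.6, 34.4, 35 and 34.2 on day 6 and 41.6, 34.97, 46.4 and 37.3 on day 8. It was at 67.2, 64.6, 36.9 and 39.2 CPM on day 13 and 32.03, 34.1, 32.7 and 34.7 under rapamycin. Day 13 mice A and B were clear of all other mice, while C and D lay inside the day 8 range. The rapamycin mice all lay above all controls (log2 difference 0.17, adjusted p = 0.0935; exact permutation p = 0.0286). *Ddx21* rose on day 6 (0.23 ± 0.05, adjusted p = 0.00723), day 8 (0.42 ± 0.08, adjusted p = 0.00795) and day 13 (0.79 ± 0.18, adjusted p = 0.013) and fell under rapamycin against day 13 (-0.63 ± 0.18, adjusted p = 0.0258). The last result was lost without day 13 mouse A or B or any 1 rapamycin mouse (adjusted p of 0.0593 to 0.0669), and without both A and B the difference was -0.19 (0.122).

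**Figure D4:**
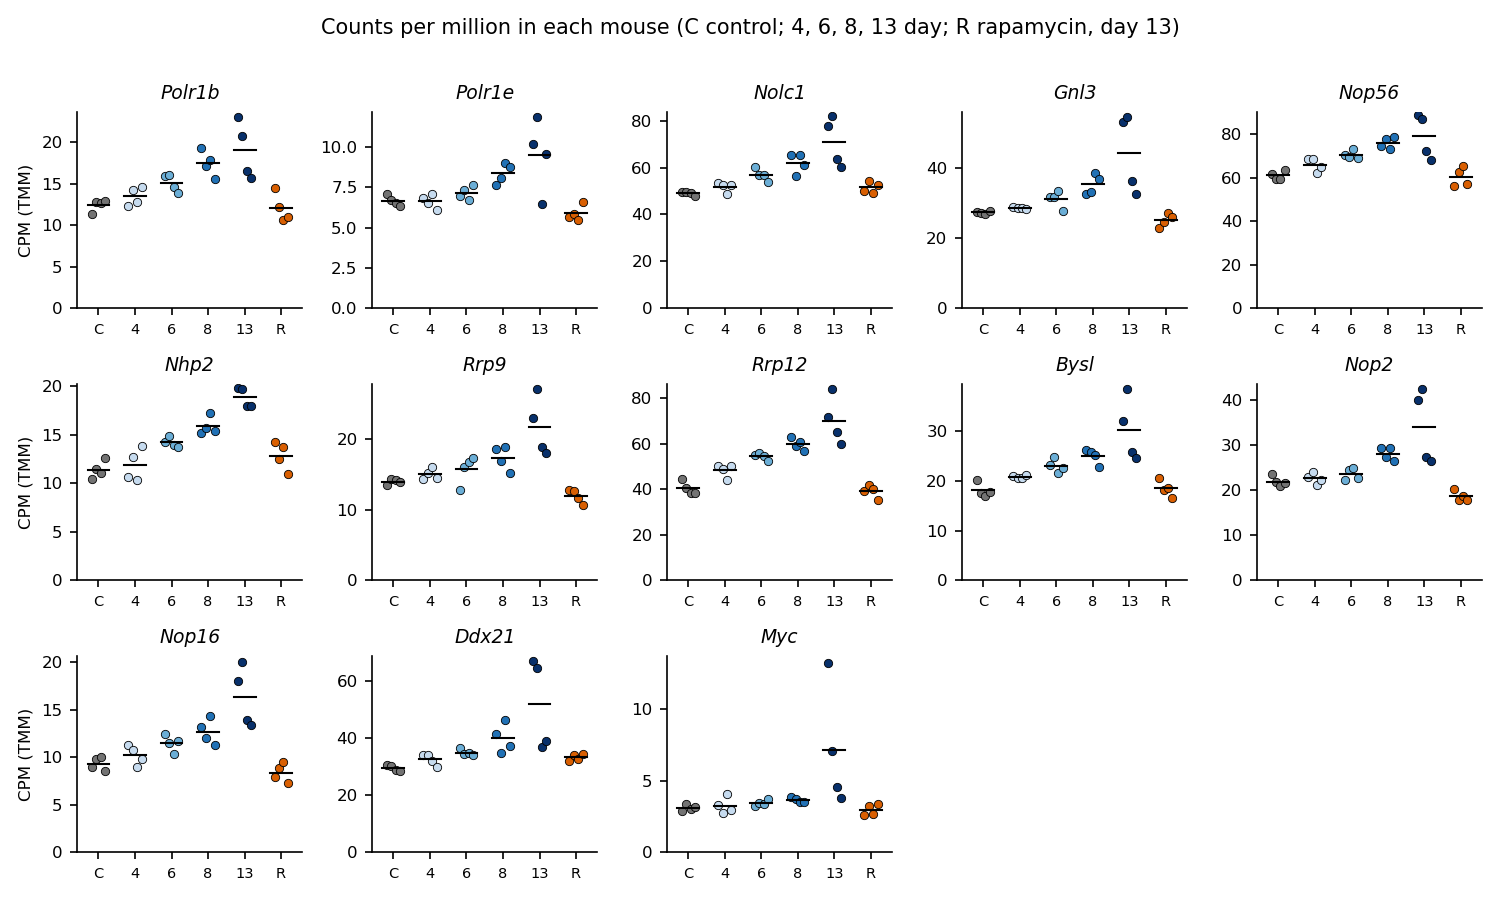
CPM with TMM scaling (y axes, from 0) in each mouse for the 13 members described by mouse, by group (x axes: C control, days 4, 6, 8 and 13, R rapamycin taken on day 13); the line is the mean of the 4 mice. In *Rrp12* the groups step up evenly from 40.4 CPM in controls to 70.1 on day 13, in *Ddx21* and *Gnl3* the day 13 mice fall into a high and a low pair, and in *Myc* 1 mouse reaches 13.2.

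The members were also split by level and by GC content. Of the 18 members at or below the median CPM in controls 11 were DE on day 13 (median log2 fold change 0.58), and of the 17 above it 5 were (0.37). Of the 17 members with transcript GC above the median 10 were DE (median 0.58) and of the 18 others 6 (0.40). Of all genes 8.4% were DE and higher on day 13. These splits describe the 35 genes and were not tested.

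Other genes of the pathway were taken from lists drawn up by function. Of 41 other small-subunit processing genes 26 rose on day 13 (15.6% of all genes) and 11 were DE (8.4%). Their median log2 fold change was 0.37. Of 40 other large-subunit processing genes 20 rose, 7 of them DE, and 1 fell (11.3% of all genes), with a median of 0.37. The largest of these were *Nifk* (1.02 ± 0.16, SE, adjusted p = 0.00279) and *Nip7* (0.96 ± 0.11, adjusted p = 0.000845), both large-subunit factors that were DE on day 8 too (0.56 and 0.58). Of 9 other RNA polymerase I genes 3 rose (15.6% of all genes) and 1 fell (11.3%), with a median of 0.23. Against day 13, the rapamycin mice had 24 of the 41 and 19 of the 40 lower (17.7% of all genes). *Nifk* (-0.996 on the log2 scale) and *Ppan* (-0.95) fell most.

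The cytosolic ribosomal protein genes, the products that these factors assemble, were followed in the same way. On day 4, 0 of 78 rose (2.61% of all genes) and 6 fell in edgeR (1.56%), with 32 at an unadjusted p under 0.05 (share of all genes not counted). The median log2 fold change was -0.07. On day 6, 6 rose (6.24% of all genes) and 6 fell (3.81%), with a median of -0.01. On day 8, 12 rose (8.41%) and 1 fell (4.87%), with a median of 0.06. *Rps2* (0.58) and *Rplp0* (0.53) were DE on day 8 (2.15% of all genes). On day 13, 39 rose (15.6%) and 8 were DE (8.4%), with a median of 0.26. The DE counts of days 8 and 13 are near the background. Against day 13 the rapamycin mice had 19 lower (17.7% of all genes) and 6 higher (13.1%), with a median of -0.08. Against the controls the median in the rapamycin mice was 0.18, beside -0.01 for the 35 biogenesis genes. There 26 of 78 were higher (1.26% of all genes) and none lower (2.31%), none of them DE. The number was 12 in the fit of all 24 mice and 35 with a correction for GC content. The difference between the ribosomal protein and the biogenesis genes was not tested.

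Of 10 other genes of the MYC and MAX network 1 rose (15.6% of all genes) and 1 fell (11.3%) on day 13, near the background. *Mlx*, for a MAX-like partner protein, rose from 15.5 to 30.7 CPM (0.96 ± 0.18, SE, adjusted p = 0.00492) and was at 15 CPM under rapamycin. *Mycn*, a paralog of *Myc*, fell from 4.41 to 2.43 CPM (-0.89 ± 0.22, adjusted p = 0.0171).

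Markers of other cells moved in the same mice. The summed level of 6 dividing-cell markers was 27.6 to 33.9 CPM in controls, 35.4 to 37.5 on day 6, 39.4 to 61.8 on day 8, 40.3 to 59.2 on day 13 and 22.7 to 26.5 under rapamycin. Of the 6, 4 were DE and higher on day 8 (2.15% of all genes): *Birc5*, *Ccnb1*, *Mki67* and *Top2a*. On day 13 it was 5, all but *Mki67* (8.4%), and all 6 were DE and lower under rapamycin against day 13 (11.2%). *Cdk1*, *Ccnb1* and *Birc5* were at low levels, with control means of 0.40, 0.50 and 0.56 CPM. The summed level of 6 astrocyte markers was 1073 to 1107 CPM in controls, 847.5 to 1771 on day 8, 1187 to 2395 on day 13 and 853.5 to 906.9 under rapamycin, with *Gfap* and *Vim* higher and *Gja1* lower on day 13. On day 13 it was 1559 and 2395 CPM in mice A and B and 1187 and 1264 in C and D, with A and B again above C and D. Much of this sum is *Gfap*, whose mean went from 189.5 CPM in controls to 729.3 on day 13. The mean sum went from 1094 to 1601 CPM. *Aqp4* (log2 fold change 0.002), *Slc1a3* (-0.21) and *Aldh1l1* (0.35) did not pass the test on day 13. On day 6 the astrocyte sum was 901.7 to 938 CPM, below all controls. On that day 5 of 6 astrocyte, 3 of 6 microglia and 2 of 6 oligodendrocyte markers fell (3.81% of all genes). So did 2 of 5 oligodendrocyte precursor markers and 1 of 5 endothelial markers, while 2 of 6 excitatory neuron markers rose (6.24%). Of the markers of endothelial cells, microglia, interneurons, oligodendrocytes, their precursors and choroid plexus, only *Cd68* of microglia was DE and higher on day 13, and *Cldn5*, *Esam*, *Pecam1*, *Aif1* and *Cd68* were DE and lower under rapamycin against day 13. No marker of any list was at 0 in all mice of a group, and the part of these cells in the changes above was not tested.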

How the data were processed

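RNA of the hippocampus of 24 mice was sequenced by the authors from stranded, rRNA-depleted total RNA libraries. Per the labels and the study's methods, the authors trimmed reads with CutAdapt 1.16.5, aligned them to mm10 with STAR 2.7.2b and deposited whole-number read counts per gene made with featureCounts 1.6.4, without normalization. The strand setting and the treatment of reads with several alignments are not given in the sources used here, so members that overlap a gene on the other strand are marked. Symbols, positions and lengths came from GENCODE M21, in which 55144 of the 55385 identifiers were found, and promoter windows from RefSeq on GRCm38.p6. Groups and mouse letters came from the sample titles, and the number series from the names of the deposited counts.

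Each pair of groups was tested with edgeR 4.0.16 in R 4.3.3 (filterByExpr, TMM, quasi-likelihood test, Benjamini-Hochberg over all genes tested). Exact permutation tests were two-sided over the 70 arrangements of 4 against 4 mice. No pair of libraries agreed within sampling noise. The steps were tested on simulated data. Alternatives were DESeq2 1.42.0, a fit of all 24 mice, other size factors, no filter, a GC correction, counts thinned to 28208561 per mouse, the mouse letter or number series as a block, and each mouse left out; leaving out day 13 mice A and B, total-count scaling and a set without *Myc* were chosen after seeing the data. Mouse letters did not pair mice across groups.

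The members and all lists were chosen with earlier results of these data known. Values in every mouse are given for the 10 members with the largest absolute log2 fold change among the 19 DE in any comparison, for *Myc*, and for the member with the smallest adjusted p on day 13 in each role. Of other genes, the DE genes with the 3 largest changes in each comparison are named. *Mycn*, the *Rrn3* promoter and the cell markers were named after their values were seen. The p-values rest on the spread between these mice and take the mice as independent. Labels do not say which mice shared litters, so this could not be checked.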

Additional observations from a re-analysis of the deposited data

Results flagged for a closer look

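In 1 of 84 groups of 4 mice, taken over the levels of the members described by mouse and their group level, 1 mouse stood apart by Dixon's criterion. *Polr1b* was at 11.39 CPM in control A and at 12.69 to 12.94 CPM in the other 3 controls, a gap of 0.843 of the group's range. Chance alone marks about 1 in 20 groups.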

How the results depend on the processing

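With no minimum of the fold change, 2, 13, 21 and 26 members passed on days 4, 6, 8 and 13 in place of 0, 0, 1 and 16. On day 8 the number DE was 2 with thinned counts (*Polr1b* and *Rrp12*) and 1 to 2 with 1 mouse left out (2 without control A, control D or day 8 mouse D, where *Bysl*, *Nhp2* or *Polr1b* joined *Rrp12*). The day 6 median of 0.165 was 0.147 with the GC correction, 0.142 with thinned counts and 0.137 to 0.168 with 1 mouse left out, and the day 6 group level of 0.157 was 0.122 with total-count scaling. Without day 13 mice A and B, 3 members were DE on day 13 (median 0.289; 4.89% of all genes DE and higher) and 5 for rapamycin against day 13 (median -0.258; 6.94% DE and lower). The cause of these differences was not tested.

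The mouse letters did not pair the samples (correlations of deviations from -0.1207 to 0.0883 over 27110 genes). With the letter as a replicate block, 0, 0, 1 and 15 members were DE on days 4, 6, 8 and 13, 0 for rapamycin against control and 17 for rapamycin against day 13. Of the fold changes of the members described by mouse, none changed sign among called results under the alternatives, 1192 stayed on their side of the threshold, 88 lost and 7 gained significance. Members under about 4 CPM, *Gar1* and *Myc*, have the fewest counts, so small differences in them were not detectable at this depth.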
